A study of Mus musculus with 20 samples.

Results

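HEB is the basic helix-loop-helix transcription factor encoded by Tcf12, and its sites were mapped by chromatin immunoprecipitation with sequencing (ChIP-seq) in the mouse mammary epithelial line Comma-Dβ, with input chromatin as the accompanying control samples. The HEB sites described here are all intervals of the deposited HEB list that lie on the numbered chromosomes or X, chosen by chromosome alone, and they number 882 of 956. The other 74 lay on Y (5 sites) and on unplaced sequences (69 sites). The study held 20 samples in 5 groups of 4, and the groups used here are 4 HEB samples and 4 input samples of the same line at passage 28. All were grown in one medium, DMEM/F12 with epidermal growth factor at 5 ng/mL, insulin at 0.125 IU/mL, 2% serum and 10 mM HEPES, with no treatment or genetic change in the labels. The whole study therefore rests on 1 cell line. The 4 HEB replicates are represented by 1 consensus list without a height, a p-value or a column per replicate, so no value below has a replicate error, HEB could not be tested against input, and all intervals are Wilson 95% intervals that cover counting error only. Read depth is unknown.

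E proteins such as HEB bind DNA as dimers, with themselves or with cell-type-restricted basic helix-loop-helix partners. Their target is the E-box, the hexamer CANNTG, in which the 2 central bases differ between binding partners. Id proteins, which lack the DNA-binding region, pair with E proteins and keep them off DNA. In epithelia, E proteins are known for their part in lineage choice and in the control of cadherin genes. Of the histone marks named below, H3K27ac is found at enhancers and promoters in use, H3K4me3 at promoters, and H3K27me3 where Polycomb complexes silence genes. The fold printed for a mark is the authors' enrichment of the whole peak that a site overlaps by at least 1 bp, and it is not a measure of HEB.

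The sequences that HEB sites cover could be read at gene starts, in RefSeq promoter windows of build GRCm38.p6 that run from 250 bases before to 50 bases after each start. Shown first are the 6 stretches with an E-box whose sites were centred nearest to a gene start, since these show the motif where a site sits on a promoter. Each is the part of the window upstream of the start that lies inside the HEB site, written 5′ to 3′ on the strand of the gene, with every match to CANNTG in capitals.
Col16a1: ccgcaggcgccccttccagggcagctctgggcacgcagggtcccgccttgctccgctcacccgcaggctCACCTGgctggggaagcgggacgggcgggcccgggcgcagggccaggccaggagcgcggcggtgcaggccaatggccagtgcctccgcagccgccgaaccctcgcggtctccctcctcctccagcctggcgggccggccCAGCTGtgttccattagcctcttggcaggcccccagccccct
Rabl2: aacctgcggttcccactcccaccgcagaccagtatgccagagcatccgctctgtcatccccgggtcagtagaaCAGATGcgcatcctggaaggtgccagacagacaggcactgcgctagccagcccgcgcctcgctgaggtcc
Bmf: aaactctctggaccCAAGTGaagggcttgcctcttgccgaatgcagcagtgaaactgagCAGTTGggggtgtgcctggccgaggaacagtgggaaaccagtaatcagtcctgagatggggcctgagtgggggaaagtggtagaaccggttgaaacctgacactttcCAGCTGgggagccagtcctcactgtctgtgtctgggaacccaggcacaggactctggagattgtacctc
S1pr2: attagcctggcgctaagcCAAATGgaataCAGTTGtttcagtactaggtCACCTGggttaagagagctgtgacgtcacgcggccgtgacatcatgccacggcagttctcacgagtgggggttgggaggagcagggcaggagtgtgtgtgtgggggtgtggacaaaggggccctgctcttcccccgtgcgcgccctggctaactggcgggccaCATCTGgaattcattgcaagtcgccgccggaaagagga
Gm17597: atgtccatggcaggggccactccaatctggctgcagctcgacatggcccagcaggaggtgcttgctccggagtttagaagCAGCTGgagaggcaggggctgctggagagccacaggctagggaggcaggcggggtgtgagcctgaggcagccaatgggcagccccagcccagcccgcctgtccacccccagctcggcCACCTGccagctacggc
Gm33078: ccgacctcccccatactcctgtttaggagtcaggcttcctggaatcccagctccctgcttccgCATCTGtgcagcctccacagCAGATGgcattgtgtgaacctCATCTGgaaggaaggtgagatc
They lie at chr4:130047590-130047839 on the plus strand (Col16a1), chr15:89591924-89592066 on the minus strand (Rabl2), chr2:118544588-118544822 on the minus strand (Bmf), chr9:20976794-20977043 on the minus strand (S1pr2), chr15:81802614-81802827 on the minus strand (Gm17597) and chr11:57911983-57912108 on the plus strand (Gm33078). Col16a1 encodes a fibril-associated collagen, and its stretch held CACCTG and CAGCTG. The Bmf stretch, upstream of a BH3-only cell death gene, held 3 E-boxes, of which 1 was CAGCTG. S1pr2, a sphingosine-1-phosphate receptor gene, had 4 E-boxes, none of them CAGCTG. Gm17597 is a long noncoding RNA gene that starts beside Tef, a bZIP factor gene, and its stretch held CAGCTG and CACCTG. Rabl2, a small GTPase gene, had a single CAGATG, and the noncoding RNA gene Gm33078 had CATCTG at 2 places and CAGATG at 1.

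A promoter window was touched by 52 of the 866 HEB sites on the 19 chromosomes with windows (6.005%), at the windows of 55 genes. At 50 of the 52 sites an H3K27ac peak was present and at 36 an H3K4me3 peak. With 1 stretch counted per site, a median of 274 bases long, CANNTG stood in 35 of 52 stretches (67.3%, 53.8 to 78.5). The same positions of all 32619 windows held it in 57.8%, which is within that interval. CAGCTG stood in 16 of 52 (30.8%, 19.9 to 44.3) against 12.2% of all windows, so its interval lay above the share over all promoters. CAGGTG, counted with its reverse complement CACCTG, stood in 11 stretches (21.2%, 12.2 to 34.0) against 15.1%. CACGTG, the E-box of Myc and clock factors, stood in 4 (7.69%, 3.03 to 18.2) against 5.35%. These 3 E-box forms are subsets of CANNTG, and motifs were searched on both strands.

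Active promoters differ in base composition from promoters as a whole, so the shares were also set beside 12537 windows that touch an H3K27ac peak and no HEB site, a background added after the values were seen. The median GC content was 59.8% in the 24 windows wholly inside a site, 60.3% in those acetylated windows and 53% over all windows. Against the acetylated windows, CANNTG had a share of 49.0% and CAGCTG one of 10.9%, both below the intervals of the HEB stretches. CACGTG had 7.40%, next to 7.69% in the HEB stretches. Among motifs of other factors, TGANTCA stood in 9 stretches (17.3%, 9.38 to 29.7) against 5.77% of all and 4.68% of acetylated windows. This pattern takes in the AP-1 site, which has C or G at its centre, but is broader. The match at H1f5 was TGATTCA, so not all 9 stretches hold an AP-1 site. The TEAD motif GGAATG stood in 3 (5.77%, 1.98 to 15.6) against 10.8% and 9.17%, and the Runx motif TGTGGT in 6 (11.5%, 5.40 to 23.0) against 12.3% and 9.64%, both without a gap beyond the interval. A match describes the letters in a window and not a bound site, and most HEB sites lie outside these windows.

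**Figure D1:**
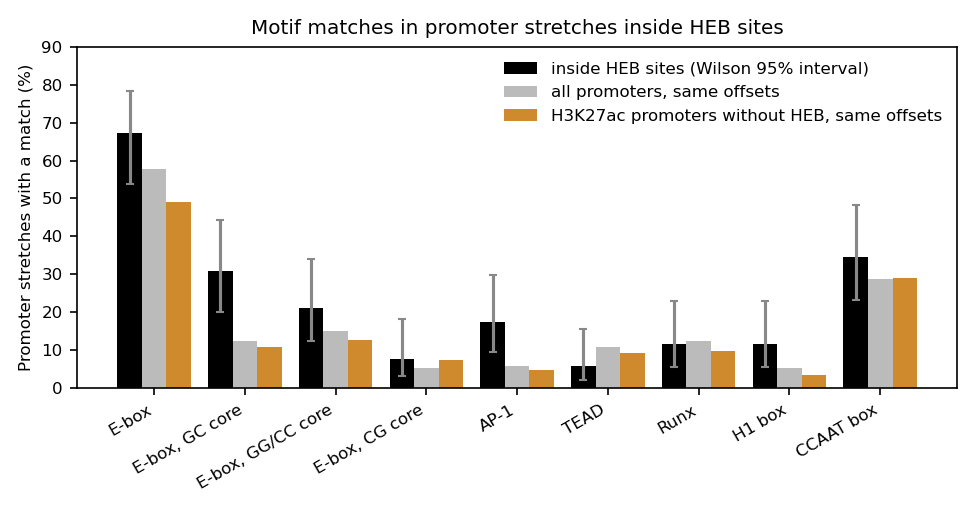
Share of promoter stretches with a match to each motif (y axis, percent) for the 52 stretches inside HEB sites (black, with Wilson 95% intervals), for all promoters at the same positions (grey) and for H3K27ac promoters without a HEB site (orange). The E-box with a GC core and the pattern TGANTCA (labelled AP-1) reach 30.8% and 17.3% in HEB stretches, with intervals that lie above both other bars.

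A second group of HEB sites lay on linker histone genes, which encode the H1 proteins that bind the DNA between nucleosomes. Of 10 linker histone genes, 5 had a site midpoint within 1 kb of a gene end, while 0.338% of the 21627 protein-coding genes had one, and none of 61 core histone genes did. The family was picked after its values were seen, so the count is a description. The midpoints lay 27 bp from H1f3, 57 bp from H1f0, 74 bp from H1f4, 138 bp from H1f2 and 244 bp from H1f5, in each case upstream of the start. H3K27ac folds were 12.51 at H1f4, 11.8 at H1f2, 10.5 at H1f5, 9.89 at H1f3 and 3.69 at H1f0. The 4 genes on chromosome 13 thus had folds above 9, and H1f0, the replacement H1 gene on chromosome 15, had the lowest. The nearest sites to the other linker histone genes lay 24.999 kb (H1f1), 42.1 kb (H1f6), 362.2 kb (H1f10), 443.6 kb (H1f7) and 458.1 kb (H1f8) away. H3f3b, which encodes the replacement histone H3.3 and is not among the 61 genes, also had a site, with an H3K27ac fold of 7.72. Its midpoint lay 87 bp downstream of a listed start but 1.62 kb from the nearest gene end.

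The 250 bases before each of these 5 starts lay wholly inside the HEB site, and they are shown because E-boxes were scarce in them. Capitals mark CANNTG, the AAACACA element known from H1 promoters, and the box CCAAT, each on either strand.
H1f0: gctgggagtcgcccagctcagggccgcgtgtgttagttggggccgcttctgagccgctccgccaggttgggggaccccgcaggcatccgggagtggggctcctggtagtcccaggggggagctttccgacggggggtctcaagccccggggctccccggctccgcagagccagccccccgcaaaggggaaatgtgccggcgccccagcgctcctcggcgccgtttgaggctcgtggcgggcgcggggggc
H1f2: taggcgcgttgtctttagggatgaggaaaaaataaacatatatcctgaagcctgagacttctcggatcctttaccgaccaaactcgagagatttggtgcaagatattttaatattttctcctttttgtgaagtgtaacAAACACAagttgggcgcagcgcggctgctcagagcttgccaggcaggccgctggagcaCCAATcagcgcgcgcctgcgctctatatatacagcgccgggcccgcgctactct
H1f3: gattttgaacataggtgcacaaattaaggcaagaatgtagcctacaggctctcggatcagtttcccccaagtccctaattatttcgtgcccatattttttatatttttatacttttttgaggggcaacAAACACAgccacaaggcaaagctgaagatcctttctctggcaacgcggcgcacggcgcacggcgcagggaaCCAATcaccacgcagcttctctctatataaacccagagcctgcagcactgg
H1f4: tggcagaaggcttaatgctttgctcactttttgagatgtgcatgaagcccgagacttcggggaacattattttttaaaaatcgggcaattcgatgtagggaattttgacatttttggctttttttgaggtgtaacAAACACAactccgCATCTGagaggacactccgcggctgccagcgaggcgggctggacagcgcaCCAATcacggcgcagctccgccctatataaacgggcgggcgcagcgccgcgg
H1f5: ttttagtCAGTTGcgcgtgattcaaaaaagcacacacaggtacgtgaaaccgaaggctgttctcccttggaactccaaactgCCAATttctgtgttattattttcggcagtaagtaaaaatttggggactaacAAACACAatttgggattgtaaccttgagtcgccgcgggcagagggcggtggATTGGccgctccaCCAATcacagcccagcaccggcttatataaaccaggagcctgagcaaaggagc
They lie at chr15:79027962-79028211 on the plus strand (H1f0), chr13:23738557-23738806 on the plus strand (H1f2), chr13:23554782-23555031 on the plus strand (H1f3), chr13:23622559-23622808 on the minus strand (H1f4) and chr13:21780626-21780875 on the minus strand (H1f5). The H1 element AAACACA stood in the 4 stretches on chromosome 13, as did the CCAAT box, while the H1f0 stretch held none of the 3 motifs. E-boxes were limited to 1 CATCTG at H1f4 and 1 CAGTTG at H1f5, and no stretch had CAGCTG. Among the 24 windows wholly inside a site, AAACACA stood in 6 (25%, 12 to 44.9) against 7.22% of all windows, and CCAAT in 14 (58.3%, 38.8 to 75.5) against 37.6%. Without the 5 linker histone windows the first stood in 2 of 19 (10.5%, 2.94 to 31.4) and CCAAT in 10 (52.6%, 31.7 to 72.7), and both intervals cover the share over all windows. CANNTG stood in 20 of the 24 (83.3%, 64.1 to 93.3). Its share was 72.3% of all windows, within that interval, and 62.7% of acetylated windows, below it. Without the linker histone windows CANNTG stood in 18 of 19 (94.7%, 75.4 to 99.1), an interval above both shares. CAGCTG stood in 9 of the 24 (37.5%, 21.2 to 57.3), against 16.4% of all and 14.6% of acetylated windows. The H1 element, the CCAAT box and the linker histone windows were chosen after the values were seen.

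HEB sites were short. The median width was 426 bp (interquartile range 345 to 537), 90% were at most 701 bp wide, and the range ran from 172 to 4704 bp. The class of 250 to 500 bp held 561 sites (63.6%) and that of 500 to 1000 bp another 244 (27.7%), while 49 were narrower than 250 bp and 28 were at least 1000 bp wide, of which 2 exceeded 2000 bp. An H3K27ac peak was present at 75.5% of the narrowest class, 85.9% of the next, 93.0% at 500 to 1000 bp and 76.9% at 1000 to 2000 bp. H3K4me3 was present at 17.3% of sites of 250 to 500 bp, 25% of those of 500 to 1000 bp and 57.7% of those of 1000 to 2000 bp. Median width was 436 bp for the 768 sites in H3K27ac and 369 bp for the 114 without it. Across the 768 sites in H3K27ac, width and the fold of the peak had a Spearman correlation of 0.159 and a Pearson correlation of 0.104, and width and the width of the peak one of 0.0963 and 0.0219. Sites in the same peak share its fold and width in these figures.

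The widest sites fell into 2 kinds. One kind lay in strongly acetylated chromatin at well-annotated genes, such as a site of 1427 bp within Nfic, a nuclear factor I gene (fold 5.11), one of 1365 bp within the sialyltransferase gene St3gal3 (10.1), and one of 1715 bp near Hhat, the Hedgehog acyltransferase gene (8.09). The others had a low fold or no H3K27ac peak, and several lay near a chromosome end. The widest of all, 4704 bp at chr11:3100032-3104735 near Pisd-ps1 and Sfi1, had a fold of 1.48. The next, 2118 bp at chr9:3011257-3013374, was nearest to Mir101c and had 2.69. Sites of 1849 bp at the double homeobox gene Duxf3 and of 1674 and 1418 bp at Gm32719 had no H3K27ac peak, and those of 1548 bp at the vomeronasal pseudogene Vmn1r-ps2 and of 1440 bp at Gm39469 had folds of 1.53 and 1.43. The narrowest were 172 bp at 4930467D21Rik and 180 bp at Mir101c, Gm40665, Ccdc85a and Mfap4.

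HEB sites were spread widely. The nearest other site lay a median of 337 kb away, edge to edge (interquartile range 66.3 to 1213 kb), and the range ran from 0.169 kb to 61270 kb. A neighbour stood within 1 kb at 16 sites, at 1 to 5 kb at 30 and at 5 to 25 kb at 95, while 355 sites (40.2%) had theirs at 100 to 1000 kb and 255 (28.9%) at 1000 kb or more. Linking sites at most 25 kb apart gave 805 loci, of which 741 were lone sites, 56 were pairs and 8 held 3 or more sites. In these terms 141 sites (16.0%, 13.7 to 18.6) were clustered. The share and the number of loci move with the linking distance, to 5.22% and 3 loci of 3 or more at 5 kb, and to 30.8% and 30 loci at 100 kb.

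**Figure D2:**
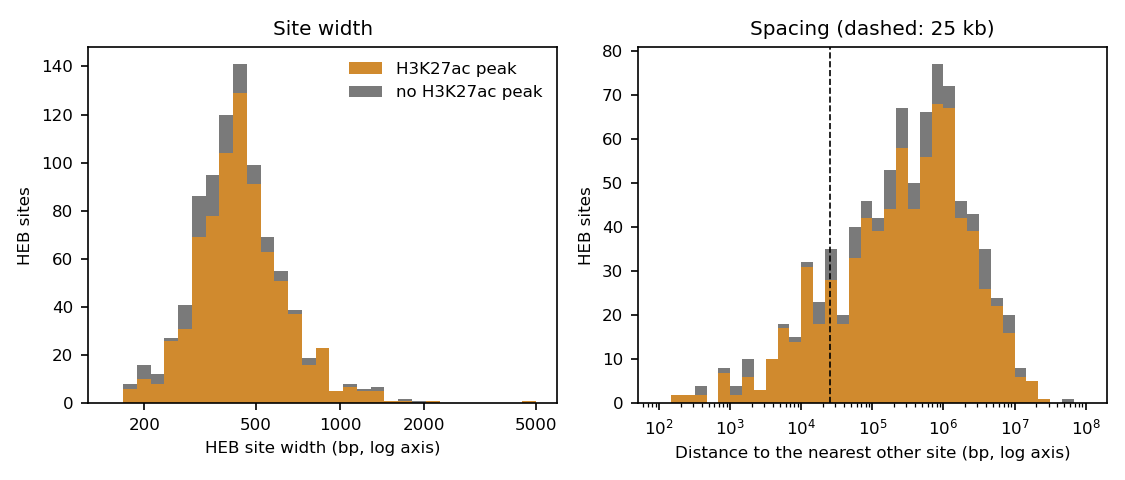
Histograms of the width of the 882 HEB sites (left) and of the distance from each to its nearest other site (right), in bp on log axes, with sites in an H3K27ac peak in orange and the others in grey. Widths centre on a median of 426 bp, and 141 sites fall left of the dashed line at 25 kb.

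Clustered and lone sites had H3K27ac at similar shares, 86.5% (79.9 to 91.2, n = 141) and 87.2% (84.6 to 89.4, n = 741). The median fold at sites in H3K27ac was 4.76 for clustered and 4.32 for lone sites, and the median width of the peak 5043 and 3564 bp. H3K27me3 stood at 22 of 141 clustered sites (15.6%, 10.5 to 22.5) and at 35 of 741 lone ones (4.72%, 3.42 to 6.498). Without the 27 sites within 500 kb of the first or last position listed on a chromosome, called chromosome ends here, these shares were 9.60% (5.58 to 16.0) and 4.79% (3.47 to 6.59), with intervals that overlap. The intervals treat clustered sites as separate, although neighbours can share a peak. Of the 22 clustered sites with H3K27me3, 7 stood in a single group at the start of chromosome 9. Of the 27 sites near an end, 20 had H3K27ac, 16 H3K4me3 and 10 H3K27me3. All 3 marks stood together at 20 sites, of which 10 were near a chromosome end.

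Of the 8 loci with 3 or more sites, 5 had H3K27ac at each site. The 3 sites in Nfix, a nuclear factor I gene on chromosome 8 (84722851 to 84753266), lay in a single H3K27ac peak of 91.9 kb with a fold of 7.33, and the first was 12 bp from the noncoding RNA gene G430095P16Rik. By gene ends, 2 of them were nearer to Lyl1, a basic helix-loop-helix gene, at 18.3 and 38.1 kb. Another 4 sites stood within 14.1 kb at Gm29935 on chromosome 5 (111877233 to 111891306), 3 of them in 1 peak of 6.21 kb with a fold of 6.36 and the other in a peak of 5.502. The nearest coding gene there, the crystallin gene Cryba4, was over 355 kb from each. A further site at 10.9-fold acetylation lay 76.9 kb before this group, 342.9 kb from Mn1, a transcriptional coregulator gene.

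Id3, whose product binds E proteins and blocks their access to DNA, had 3 sites on chromosome 4 at 33.0, 26.7 and 3.32 kb, in peaks with folds of 2.07, 4.73 and 5.06. Only the last also had H3K4me3. The site nearest to Id3 thus had the highest of the 3 folds, and all 3 lay on the same side of the gene. The 3 sites before Ank, a pyrophosphate transporter gene on chromosome 15, lay 85.0, 60.8 and 47.9 kb from it at folds of 4.57, 10.1 and 4.99. Their nearest gene ends were those of the pseudogene Gm19111, at 12.7 and 36.9 kb, and of the noncoding Gm36899, at 41.4 kb.

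The other loci with 3 or more sites lay in regions of repeated genes or at chromosome starts. At the start of chromosome 9 (3003442 to 3029846), nearest to Mir101c, 7 sites stood within 26.4 kb and all carried H3K27ac (2.29 to 3.50), H3K4me3 and H3K27me3. The 3 sites at C130026I21Rik on chromosome 1 and the 3 at LOC100504180 and Duxf3 on chromosome 10 had no H3K27ac peak. Of the 3 near Vmn1r-ps2 at the start of chromosome 4, 1 had H3K27ac, at 1.53. How reads that map to several places were handled is not stated in the sources used here, so the sites at these loci, and those with all 3 marks near chromosome ends, are given with that limit. Linked at 25 kb, the 768 sites in H3K27ac peaks alone gave 5 loci of 3 or more.

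Wider links joined more sites into chains. With links of up to 100 kb, 10 chains held 4 or more sites, 8 of them with H3K27ac at each site. Rxra, which encodes a retinoid X receptor, had 1 site inside the gene, 4.84 kb from its end, and 3 beyond it at 11.4, 39.4 and 50.1 kb, at folds of 4.70, 4.84, 5.72 and 3.73. Another site of that chain, at 4.91-fold, lay nearest to the collagen gene Col5a1. Gse1, a coregulator gene, had 1 site 11.4 kb before it (4.72) and 3 inside it (3.09, 1.98 and 5.92), of which the first inside also had H3K27me3 and the second H3K4me3. Around Snai1, the EMT transcription factor gene on chromosome 2, 5 sites at 4.61- to 8.45-fold reached from Spata2 to Ube2v1 over 122.0 kb, with the highest fold 0.76 kb from Snai1. Chains also ran from Cdc42ep1 past the galectin gene Lgals1 and Triobp to H1f0 (4 sites, 3.69 to 8.99), and from the DNA glycosylase gene Mpg to Sh3pxd2b (4 sites, 3.81 to 7.98).

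**Figure D3:**
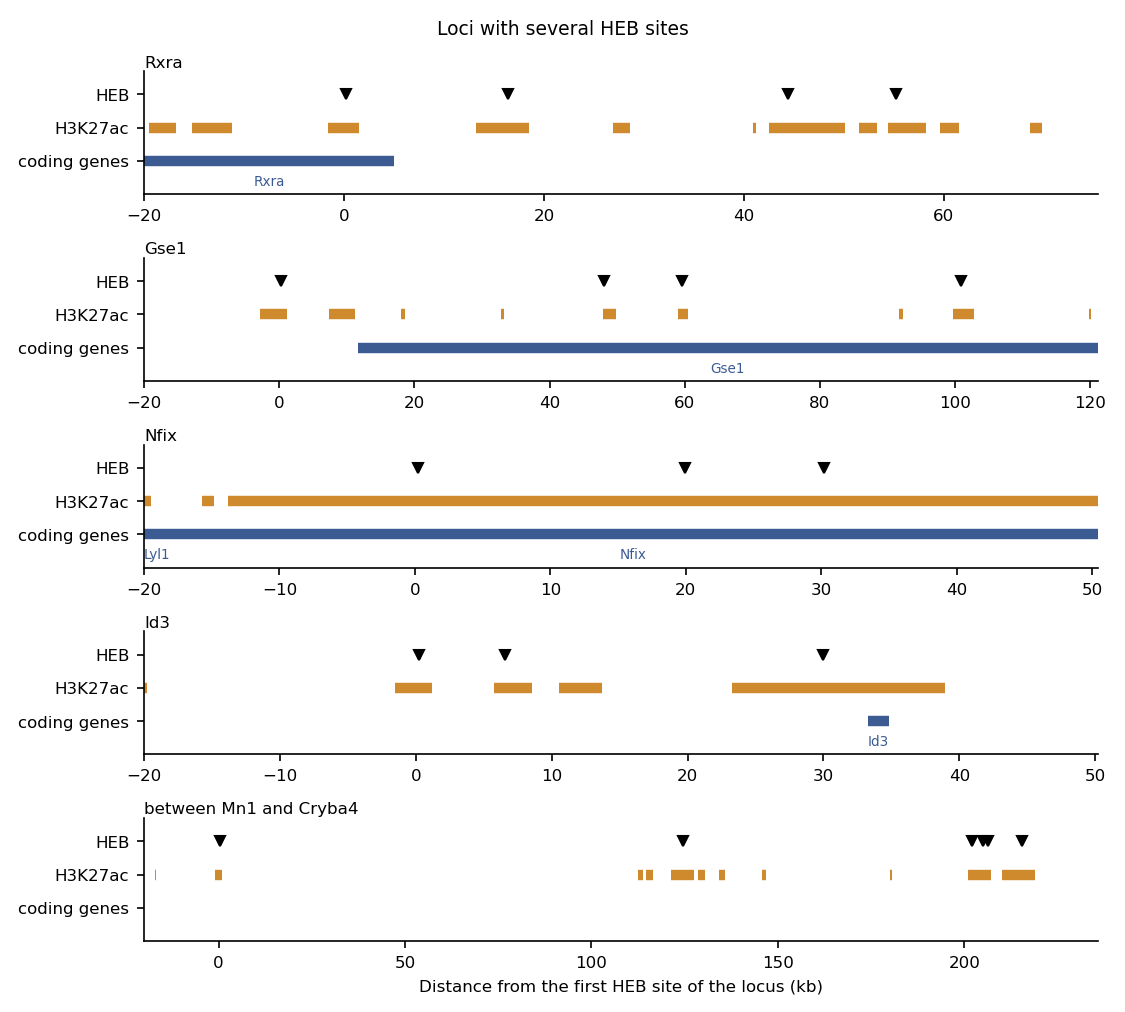
Maps of 5 loci with several HEB sites, with the distance from the first site in kb on the x axis, site midpoints as triangles, H3K27ac peaks as orange bars and protein-coding genes as blue bars. The 4 sites at Gse1 sit in 4 separate peaks, while the 3 in Nfix share 1 peak of 91.9 kb.

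Counted by the nearest protein-coding gene end, at most 100 kb away, 754 sites fell to 657 genes, of which 77 had 2 or more sites and 12 had 3 or more. All sites were in H3K27ac peaks at 63 of the 77 and at 8 of the 12. Besides the genes above, Col18a1, the endostatin collagen gene, had 3 sites at folds of 3.57, 2.65 and 6.69. Polr1a, which encodes the large subunit of RNA polymerase I, had 3 at 4.61, 2.15 and 7.59, and Zcchc24 had 3 at 9.44, 4.48 and 3.71. The remaining 4 genes lacked H3K27ac at some or all of their sites. These were C130026I21Rik (0 of 4 sites), Gm15319 (2 of 4), Sfi1 (1 of 3) and Scaf8, where 2 of 3 sites, at the start of chromosome 17, had no H3K27ac peak.

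Several sites could also share 1 H3K27ac peak. This held for 45 sites in 21 of the 744 peaks with a site. The 21 peaks had a median width of 13424 bp and a median fold of 6.01, against 3563 bp and 4.32 for peaks with 1 site. Examples with 2 sites were the peak beyond Lif, an interleukin-6 family cytokine gene (21.9 kb, 8.29), those at Adcy7, an adenylyl cyclase gene (16.0 kb, 9.21), and at Srrm1 (6.67 kb, 9.61), and that over Col16a1 (13.4 kb, 5.92). Wider peaks offer more room for a second site, and this was not adjusted for. Of 753 site midpoints inside an H3K27ac peak, 380 (50.5%) lay in the central 33.3% of its length, and 37 (4.91%) in the outermost 20%, taken equally from both ends.

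Gene kinds were counted in a RefSeq table of 49550 genes. By gene body, 529 sites (60.0%, 56.7 to 63.2) were nearest to or inside a protein-coding gene, a kind that makes up 43.6% of the table, and 387 of these lay inside it. A long noncoding RNA gene was nearest at 260 sites (29.5%, 26.6 to 32.6, and 25.6% of the table), with 123 inside. A site inside several genes was counted with the shortest, so 387 is a minimum for sites inside coding genes. A pseudogene was nearest at 64 (7.26%, 5.72 to 9.16; 19.9% of the table), and miRNA genes at 9. Long genes take up more sequence than short ones, so the shares of the table are no measure of what random positions would give. H3K27ac was present at 93.1% of the sites nearest to a long noncoding RNA gene, 86.4% of those at coding genes and 68.8% of those at pseudogenes.

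The median distance from a site midpoint to the nearest gene end was 8.59 kb for genes of any kind and 22.2 kb for protein-coding genes. For genes of any kind 34 sites were within 0.1 kb and 123 within 1 kb, and 23 were more than 100 kb away. From protein-coding gene ends 128 sites were more than 100 kb away. Relative to gene starts, taken from the promoter windows, 74 of 866 sites (8.55%) were within 1 kb, 33 upstream and 41 downstream, and the median distance was 21.0 kb.

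**Figure D4:**
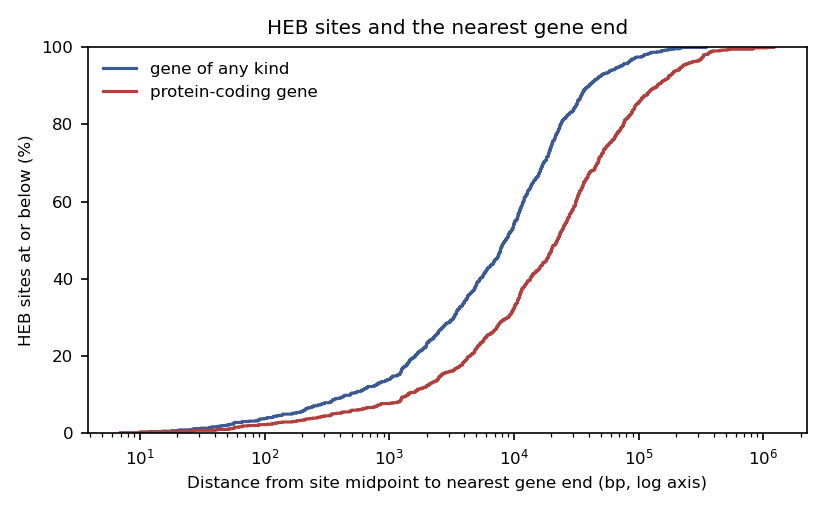
Cumulative share of the 882 HEB sites (y axis, percent) by distance from the site midpoint to the nearest gene end (x axis, bp, log axis), for genes of any kind (blue) and protein-coding genes (red). The medians are 8.59 and 22.2 kb.

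The sites nearest to a gene end lay at genes with varied roles. Mon2, an endosome trafficking gene, had a site 7 bp away with H3K4me3 at 13.1 and no H3K27ac peak. S1pr2 and Tmem119 had theirs at 10 bp, at H3K27ac folds of 7.43 and 2.04, and the Tmem119 site also carried H3K27me3. Ndor1, a diflavin oxidoreductase gene, followed at 15 bp (5.10), Nckap5l at 21 bp (3.43), Col16a1 at 27 bp (5.92), Rabl2 at 42 bp (3.08) and Vamp1, a vesicle SNARE gene, at 51 bp (3.49). H3K4me3 stood at each of these 8 sites. Noncoding genes among the 20 nearest included Gm10060 at 18 bp, Gm17597 at 20 bp, Gm46516 at 31 bp, Gm32861 at 37 bp, Gm19088 at 38 bp, 5033421B08Rik at 46 bp and Gm8883 at 50 bp. Rnu11, the U11 RNA of the minor spliceosome, had a site at 36 bp with a fold of 7.53. The farthest sites lay 350.5 kb from Gm41965 (9.59-fold H3K27ac), 222.9 kb from an end of Caln1, 214.6 kb within the recombination gene Rad51b (9.67), 213.4 kb from BC006965 and 190.9 kb within Bnc2 (3.27). Sites far from any gene end thus included folds above 9 as well as 2 sites with no H3K27ac peak, those at Caln1 and BC006965.

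Of 1228 miRNA genes in the RefSeq table, 7 had a HEB site within 1 kb by nearest gene end. All 7 were matched to a mature sequence in RefSeq. Over all 49550 genes, 123 sites were within 1 kb of an end. Of the 3 miR-199 genes, a family picked after its values were seen, 2 stood near a site, both inside dynamin genes. Mir199a-1, within Dnm2, had one at 527 bp (H3K27ac fold 4.80), and Mir199b, within Dnm1, had one at 312 bp (2.56), a site whose nearest gene end was that of Gm23363, the gene of miR-3154, at 117 bp. The nearest site to Mir199a-2 lay 117.1 kb away. Mature sequences from the 2 genes near a site are shown with the seed, bases 2 to 8, in capitals.
mmu-miR-199a-3p: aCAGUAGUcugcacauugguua
mmu-miR-199b-3p: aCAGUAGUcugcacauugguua
mmu-miR-199a-5p: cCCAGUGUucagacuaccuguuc
Both 3p arms are identical and share the seed CAGUAGU. The others within 1 kb were Mir7671 at 26 bp (9.40), at a site 6.33 kb from the interferon regulatory factor gene Irf1, Mir6406 at 44 bp in Ntn1 (2.01), Mir3971 at 547 bp in Slc43a2 (5.75), Mir1191b at 663 bp in Nfic (5.11) and Mir3473e at 913 bp in Rbks (3.73). Sites whose nearest gene end was that of a miRNA numbered 22 (2.49% of sites), and miRNA genes make up 2.48% of the table. All 22 had an H3K27ac peak, 7 of them in the group at the start of chromosome 9.

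Outside the mammary marker genes, 12 lists of regulators and pathway genes held 520 distinct genes, of which 62 (11.9%) had a HEB site assigned, where 3.04% of all protein-coding genes did. The lists were drawn up with earlier results of these data known, so this gap is a description. The 62 include H1f0, H1f2, H1f3 and H1f4, the only linker histone genes on any list, and these raise the count. Counting only sites within 10 kb of an end gave 23 genes, 4.42% against 1.26% of all genes. Counting sites inside a gene or within 10 kb of it gave 49, 9.42% against 2.86%. Counting every gene with an end within 100 kb gave 113, 21.7% against 11.9%. The mammary list itself had 12 of 48 genes with a site (25%, beside the same 3.04%). Of the 657 genes with a site, 582 (88.6%) stood in no list.

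The list of nuclear factor I, AP-2, CEBP and NF-kB genes with related cytokine factors had 8 of 32 genes with a site. That is 25%, beside 3.04% of all protein-coding genes. Bcl3, a nuclear IkB family member, had sites at 5.23 kb (7.80) and 8.23 kb (3.99), and the Irf1 site had a fold of 9.40. Sites assigned to Nfatc2, a calcineurin-regulated factor gene, lay at 24.4 kb (8.94) and 10.2 kb (3.42). Nfkbia, the IkB alpha gene, had one at 22.6 kb (5.30), and Socs3, a feedback inhibitor of cytokine signalling, at 16.1 kb (6.31). Nfic had 2 and Nfix 1, and Nfatc1 had a site of 2.26. Of 32 AP-1 and immediate early genes, 5 had a site (15.6%, beside 3.04% of all protein-coding genes). Junb had one at 2.46 kb, Klf10, a TGF-beta-induced repressor gene, at 1.78 kb (4.93), Dusp1, a MAP kinase phosphatase gene, at 22.4 kb (5.07), Ier3 at 44.7 kb (6.38) and Zfp36l2, which encodes an mRNA decay factor, 2 at 71.6 and 31.0 kb (4.58 and 3.92).

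Other basic helix-loop-helix genes, which include possible partners of E proteins, had a site at 6 of 52 (11.5%, beside 3.04% of all genes). Scx, the tendon factor scleraxis, had the nearest, at 2.08 kb (6.31), followed by the Myc antagonist gene Mxi1 at 4.15 kb (4.10) and Atoh8 at 10.7 kb (4.62). Arntl, a core clock gene, had a site at 30.3 kb with the highest fold of the group (9.78), and Myc one at 89.3 kb (5.21). Lyl1 had the 2 sites that lie in Nfix. Nuclear receptor genes had a site at 2 of 36 (5.56%, beside 3.04% of all genes), Rxra and Nr6a1 (2.95). The list of Sox, Klf, Runx, Fox and Ets factors had 2 of 47 genes with a site, or 4.26%, near the 3.04% of all genes. They were Runx3 at 24.7 kb (5.74) and Foxk1, whose site had no H3K27ac peak.

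In the Hippo pathway 4 of 25 genes had a site (16%, beside 3.04% of all protein-coding genes), each of them inside the gene. They were Ajuba, a LIM adaptor (8.48), Vgll4, a TEAD-binding repressor (6.17), Wwtr1, the coactivator TAZ (3.82), and Tead1, the DNA-binding factor itself (2.52). TGF-beta and BMP signalling had 3 of 40 (7.5%, beside 3.04% of all genes). Ski, a Smad corepressor, had a site inside the gene (6.39). Tgfbr3, the coreceptor betaglycan, had one 19.1 kb outside it (5.06) and one inside (4.65). The site assigned to Nog, a BMP antagonist, lay 93.5 kb away (2.54).

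Receptor tyrosine kinase and growth factor genes had a site at 7 of 58 (12.1%, beside 3.04% of all protein-coding genes). The site nearest to an end was that of Ereg, the EGF family ligand epiregulin, at 53 bp with H3K27ac at 6.93 and H3K4me3 at 19.99. Sites lay inside Ephb3 (4.46), Igfbp4 (3.98), Insr (2.75) and the collagen receptor gene Ddr2 (2.74). Those assigned to Flt1 (5.60) and Igf2r (3.96) lay outside the genes, at 52.3 and 13.4 kb. Guidance genes had 5 of 36 (13.9%, beside 3.04% of all genes). Sites lay inside Unc5b (5.87), Sema5a (4.02) and Ntn1 (2.01). The site assigned to Slit3 lay 55.4 kb outside it (4.90). That of Plxna1 lay 76.6 kb outside and carried H3K27me3 (2.63) and no H3K27ac. None of the guidance sites was within 10 kb of a gene end. Of 64 chromatin and coregulator genes, 9 had a site (14.1%, beside 3.04% of all protein-coding genes), and 4 of these were linker histone genes. Those 4 were the only linker histone genes on the list, so they raise its count. Tnrc18 had 13.6-fold H3K27ac, Chd3, a NuRD remodeller gene, 6.11 and Brd3, a BET bromodomain gene, 5.54; Gse1 is given above. Metabolic genes had 5 of 41 (12.2%, beside 3.04% of all genes). Among them, the hexokinase gene Hk1 had a site inside it (5.16), and the lactate transporter gene Slc16a1 one 8.74 kb away (5.10). Sqle of sterol synthesis was 77.0 kb from its site (3.52). Crabp1 was 14.8 and 29.8 kb from its sites (2.02 and 13.4).

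A list of fibroblast, immune and endothelial markers had a site at 1 of 16 genes (6.25%, beside 3.04% of all genes), Cdh5, at 78.4 kb. The marks at marker genes were read beside the label of the line, and no cell type is named from them. H3K27ac and H3K4me3 both stood within 1 kb of a gene end at 28 of 48 mammary genes, including Krt5, Krt14, Krt8, Krt18, Cdh1 and Epcam, and at 1 of the 16 other markers, the matrix gene Dcn, where 49.3% of all protein-coding genes had both. H3K27me3 stood there at 19 of the 48 mammary genes, among them Krt5, Cdh1 and Epcam, and at 8 of the 16 others, where 32.7% of all genes had it. Mammary genes lacking at least 1 of H3K27ac and H3K4me3 included Myh11, Cnn1, Mylk, Foxa1, Sox10, Krt19 and Elf5. Of the other markers, Csf1r and Pecam1 had H3K27ac alone, and Kdr had H3K4me3 with H3K27me3. None of the 3 marks stood there at Ptprc, Dpt, Lum, Cdh5 and Tek, or at the mammary genes Trp63, Tagln, Csn2 and Wap.

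Keratin-associated protein genes, which build hair, had sites within 1 kb at 2 of 52, beside 0.338% of all protein-coding genes, a family picked after its values were seen. They were Krtap1-5 at 230 bp (6.74) and Krtap1-3 at 213 bp, with no H3K27ac peak. Another 3 sites stood in the same region of chromosome 11, 266 bp from Gm11563 (5.20), 206 bp from Gm11568 and 337 bp from Gm11567, the last 2 without H3K27ac. Each of the 5 lay inside its small gene.

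Chromosomes differed in the number of HEB sites. Autosomes had 0.148 to 0.803 sites per Mb, with a median of 0.321, and X had 0.0477 (8 sites). Set against the acetylated chromatin of each chromosome, 0.678% to 1.99% of H3K27ac peaks held a site on autosomes (median 1.17%) and 0.490% on X. Chromosome 15 was highest on both scales, with 81 sites, and chromosomes 5 and 11 followed in number with 77 and 73.

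**Figure D5:**
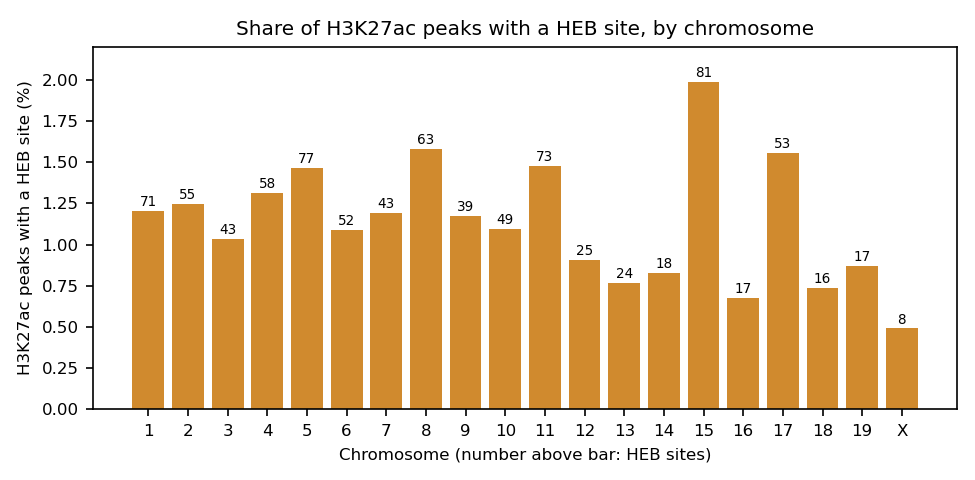
Percent of H3K27ac peaks that hold a HEB site (y axis) on each chromosome (x axis), with the number of sites above each bar. Chromosome 15 stands highest at 1.99% and X lowest at 0.490%.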

How the data were processed

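ChIP-seq was done on 20 Comma-Dβ samples, of which 4 are HEB and 4 input, grouped by the labels, which call the replicates biological. The authors deposited 1 interval list for each antibody. SAMtools and build mm10 are named in the submitters' processing notes. Not given in the sources used here were the aligner, the peak caller, its parameters, the control input and the merging of replicates. In the HEB list there are coordinates without any score, and a replicate consensus with a minimum overlap of 2 is what its name describes. The mark lists are in broadPeak layout and hold the authors' fold enrichment (a ratio over control) and the authors' −log10 q-value per peak, and 0 other columns of per-sample values were left unused. A consensus removes sites seen in too few replicates, and without heights it cannot rank HEB sites.

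Distances ran from site midpoints to both ends of genes in a RefSeq table of GRCm38.p6, the assembly mm10 is based on. Spacing was measured between facing edges. Overlap meant at least 1 bp, clusters used links of 25 kb, and genes took sites at most 100 kb from an end. Shares have Wilson 95% intervals. No test was run. The position functions were checked on simulated data. Promoter sequence was searched on 19 chromosomes, and chromosome 18 promoters were not used here. The sites and all gene lists were chosen with earlier results of these data known. The rule for named genes took genes with 3 or more sites, loci of 3 or more sites, the nearest and farthest gene ends, the widest and narrowest sites, and list members with a site, of which a few genes and 1 list are not reported here. Genes named from shared peaks, wider chains, miRNAs within 1 kb, histone and keratin-associated families, and mark checks were chosen after their values were seen, as were the H1 element and the CCAAT box. Alternatives changed the linking distance, the gene assignment, the peak threshold and the promoter windows. Python 3.11.15, numpy 2.4.6, pandas 2.3.3, scipy 1.17.1 and matplotlib 3.10.9 were used.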

Additional observations from a re-analysis of the deposited data

Results flagged for a closer look

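HEB sites were also listed on sequences that the description above leaves out. They numbered 74, with 5 on Y and 69 on 8 unplaced sequences, and 45 of them stood on a single unplaced sequence. Their median width was 1046 bp, against 426 bp for the 882 sites on the numbered chromosomes and X, and the widest reached 7215 bp. The handling of reads that map to several places is not stated in the sources used here, and its part in these sites was not tested.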

How the results depend on the processing

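Of the alternatives to the main counts and shares, 32 were counted as near the main value and 19 as moved. Those counted as near included sizeable changes. Genes with 2 or more sites went from 49 to 37 with sites in H3K27ac peaks only. List genes went from 62 to 49 by sites inside a gene or within 10 kb. Loci of 3 or more sites went from 8 to 6 without chromosome ends. The share of sites with a neighbour within 25 kb (16.0%) was 5.22%, 10.9%, 21.3% and 30.8% with linking distances of 5 kb, 0.5 times the main one, 50 kb and 100 kb, and the loci of 3 or more sites (8) numbered 3, 3, 19 and 30. With sites in H3K27ac peaks alone, an alternative chosen after seeing the data, they numbered 5. The share of sites nearest to a gene that is not protein-coding (40.0%) was 52.8% by gene end and 10.5% without gene models named Gm, Rik or LOC, so it rests on provisional gene models. The median distance to a gene end (8.59 kb) was 22.2 kb for coding genes. Genes with 2 or more sites (49 of any kind) numbered 77 by coding genes only and 75 by sites inside a gene or within 10 kb. List genes with a site (62) numbered 23 within 10 kb and 113 with each gene end within 100 kb counted. With H3K27ac peaks of −log10 q of 5 or more, 78.7% of clustered and 76.5% of lone sites were in a peak. CANNTG stood in 83.3% of whole windows against 67.3% of stretches. Single lists moved in 27 alternatives and stayed in 17. Leaving out a replicate was not possible, and no paired analysis was possible because the HEB list holds no values per replicate. Read depth is unknown, so sites missed for lack of reads cannot be counted.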
